A study of Drosophila melanogaster with 2 samples.

Results

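The genes dnc and shn were each the nearest protein-coding gene of 10 replicated ChIP-seq peaks of the CG32532 protein. Members were chosen as all peaks of the conservative set (the replicated set) whose summit had a transcription start of dnc or of shn as its nearest protein-coding start. They make up 20 of 5325 replicated peaks, over 2 of 13968 protein-coding genes. Both genes were chosen by their number of peaks in these same lists, so the numbers and strengths given for them are a description and carry no test. A gene with 10 or more replicated peaks was rare, at 8 of 13968 genes (0.0573%). Just inside that number stood 4 genes with 10 peaks, dnc and shn among them, and just outside stood 10 genes with 9 peaks.

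Chromatin came from whole Drosophila melanogaster embryos of 8 to 24 h, in 2 biological replicates of 1 group. That age is the one in the source name, and a separate age entry in the labels, too long for an embryo, was not used. Flies of the strain CG32532-GFP carried a transgene that makes CG32532 protein fused to eGFP, and chromatin sonicated to 200 to 800 bp was precipitated with an antibody against GFP. Both replicates carry the transgene, and no untreated or untagged group was analysed here, which leaves replicate 1 against replicate 2 as the sole check on a value. Whole embryos mix all cell types, and the peak lists do not show in which cells a site was bound. Read counts are not part of the lists, and sequencing depth is therefore unknown. The thresholded sets called on each replicate alone (its own set) held 3957 peaks in replicate 1 and 6850 in replicate 2.

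CG32532 is a predicted paired-class homeodomain protein, a type of DNA-binding protein that recognises TAAT-type sequences. The gene dnc (dunce) encodes a phosphodiesterase that breaks down the second messenger cAMP. Flies that lack it learn poorly in odour conditioning, and the gene is known for its many alternative starts and for small genes nested in its introns. The gene shn (schnurri) encodes a large zinc finger protein of the Dpp pathway, the fly counterpart of BMP signalling. When the ligand Dpp binds its receptors, the Smad proteins Mad and Medea enter the nucleus, join Shn on silencer elements and shut off targets such as brk, itself a repressor of Dpp target genes.

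On assembly dm6, dnc (FBgn0000479) lies on the plus strand of X from 3176440 to 3343767, a stretch of 167 kb with 17 annotated transcripts that begin at 9 different starts. Sequences of 121 bases, from RefSeq's copy of assembly dm6, show the bases under the summits of 6 dnc peaks. Capitals mark matches, on either strand, to the motifs searched (GAGAG, read as CTCTC on this strand, and CAGCTG), and a sequence without capitals held none. In order, they are the peak at the start shared by 6 transcripts, that at the dnc-RF start, the pair of intronic peaks with the highest pooled signal, the peak at the first start of the gene, and a weaker intronic peak.
dnc chrX:3255639-3255759, plus strand: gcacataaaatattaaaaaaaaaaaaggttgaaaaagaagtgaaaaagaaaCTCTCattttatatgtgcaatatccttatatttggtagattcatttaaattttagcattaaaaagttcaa
dnc chrX:3329017-3329137, plus strand: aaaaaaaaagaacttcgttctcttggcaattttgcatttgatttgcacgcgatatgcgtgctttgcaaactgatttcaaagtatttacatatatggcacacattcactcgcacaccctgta
dnc chrX:3206012-3206132, plus strand: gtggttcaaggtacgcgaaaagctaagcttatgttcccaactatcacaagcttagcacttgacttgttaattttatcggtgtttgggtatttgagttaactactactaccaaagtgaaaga
dnc chrX:3310970-3311090, plus strand: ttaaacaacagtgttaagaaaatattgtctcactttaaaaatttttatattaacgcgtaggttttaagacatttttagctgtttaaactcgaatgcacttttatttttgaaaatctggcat
dnc chrX:3176230-3176350, plus strand: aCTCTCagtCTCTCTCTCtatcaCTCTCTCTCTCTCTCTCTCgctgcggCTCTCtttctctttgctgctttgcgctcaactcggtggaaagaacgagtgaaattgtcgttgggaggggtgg
dnc chrX:3273703-3273823, plus strand: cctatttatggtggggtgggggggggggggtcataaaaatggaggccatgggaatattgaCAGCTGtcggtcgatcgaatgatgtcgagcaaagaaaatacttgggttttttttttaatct

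The strongest binding at dnc was just upstream of its alternative starts. Of the 10 dnc peaks 6 had their summit within 500 bp of a dnc start and 4 lay in introns. Over all replicated peaks 56.1% and 30.1% did, so the number at starts is near the background. A pair of the 6 are summits of 1 region, and within 200 bp of a start there were 2. All 6 summits near a start lay upstream of it, between 150 and 369 bp away. Together they held 75.7% of the summed pooled signal of the dnc peaks, and the same share over all replicated peaks is not given here. The signal is the strength of a peak as the authors' caller gave it, on a scale that is not stated. It is therefore given below for each replicate as deposited, and then as a multiple of that replicate's median over the 5279 replicated peaks with a peak in the ranked list of each replicate (67.8 in replicate 1 and 116 in replicate 2).

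The strongest dnc peak (X, 3294862 to 3295156, summit 3295004) lay 277 bp upstream of the dnc-RE start, inside an exon of dnc-RN and dnc-RP. Its signal was 345 in replicate 1 and 676 in replicate 2. Those values are 5.08 and 5.81 times the median peak, or 5.45 ± 0.52 times (SD, n = 2), and the pooled signal ranked 145 of 5325. Replicate summits there lay 1 bp apart. Both replicates thus placed a peak well above the median at almost the same position.

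Next came the start shared by dnc-RC, dnc-RD, dnc-RI, dnc-RJ, dnc-RN and dnc-RP, the start with the most transcripts. The region (X, 3255552 to 3255921) holds 2 summits, 3255699 and 3255911, so the 10 dnc peaks are 9 distinct regions. The first summit, 369 bp upstream, had a signal of 211 in replicate 1 and 509 in replicate 2 (3.75 ± 0.89 times the median peak, SD, n = 2; rank 300). The second, 157 bp upstream, had 21.9 and 3.08, taken from the ranked peak nearest to it (0.17 ± 0.21 times). The second summit was 0.32 times the median in replicate 1 and 0.026 times in replicate 2, with an SD above its mean. Only the first summit of the region thus stood above the median in both replicates. Of all replicated peaks, 20 share a region with another summit, in 10 regions.

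Another strong peak (X, 3328955 to 3329174, summit 3329077) lay 330 bp upstream of dnc-RF, in intron 7 of the longest transcript, dnc-RS. It had a signal of 138 in replicate 1 and 320 in replicate 2 (2.39 ± 0.51 times the median peak, SD, n = 2; rank 707), with replicate summits 5 bp apart. The remaining peaks at starts were below the median in both replicates. At the first start of the gene, from which dnc-RB, dnc-RS, dnc-RT and dnc-RU run, the peak (summit 3176290) had 37.0 and 82.3 (0.63 ± 0.11 times). It overlaps the end of the neighbouring gene CG3939 at 3176223. At the dnc-RQ start the peak (summit 3289029) had 44.1 and 67.6 (0.62 ± 0.048 times), and neither replicate's own set held it.

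**Figure D1:**
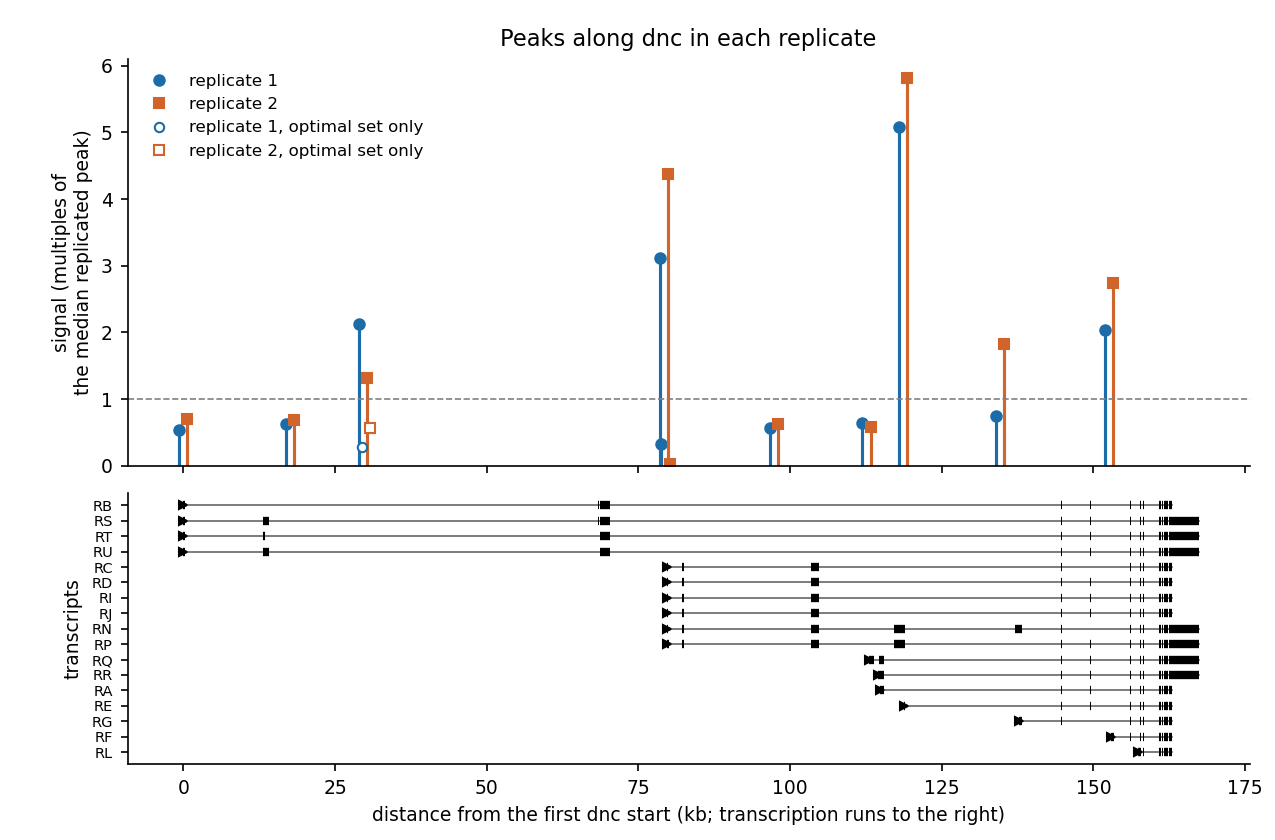
Signal of each dnc peak by replicate, in multiples of the median replicated peak (y axis), against the distance from the first dnc start in kb (x axis), over the annotated transcripts with exons as boxes. Filled symbols are replicated peaks, open symbols a peak of the optimal set alone, and the symbols of both replicates are moved slightly apart; the tallest stand at 5.08 and 5.81, just upstream of dnc-RE.

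The other 4 starts of dnc had no replicated summit within 500 bp. Over all 19630 distinct starts of protein-coding genes 22.5% had one, and at dnc 5 of 9 did. At dnc-RR the strongest peak of the ranked lists within 500 bp reached 0.25 times the median in replicate 1 and 0.24 times in replicate 2. At dnc-RA these were 0.44 and 0.24 times, and at dnc-RG 0.48 and 0.14 times. No ranked peak of either replicate lay within 500 bp of the dnc-RL start. The starts of dnc-RR and dnc-RA lie between those of dnc-RQ and dnc-RE, so neighbouring starts without a replicated summit lay between starts with one. In the own set of replicate 1, 3 of the 9 dnc starts had a summit within 500 bp, where 18.4% of all starts did. In that of replicate 2, 4 did, where 25.8% of all starts did. dnc was chosen for its many peaks, so nothing is read from its shares of starts.

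Intronic dnc peaks had lower mean multiples than the 3 strong peaks at starts, although in replicate 1 the strongest of them was above the peak at dnc-RF. In intron 2 of dnc-RS, 54.2 kb long, the peak with its summit at 3206072 lay 29632 bp into the gene. It had a signal of 145 in replicate 1 and 153 in replicate 2, or 2.13 and 1.32 times the median (1.72 ± 0.58, SD, n = 2). It was thus higher relative to the median in replicate 1, and above it in both. The other peak of that intron (summit 3193945) had 42.1 and 80.1 (0.65 ± 0.048 times). In intron 5, 74.4 kb long, which held 6 of the 10 summits, the peak 3149 bp upstream of dnc-RG (summit 3311030) had 50.7 in replicate 1 and 212 in replicate 2. These values are 0.75 and 1.82 times the median, so the replicates fell on different sides of it. A further peak of intron 5 (summit 3273763) lay 15618 bp upstream of dnc-RQ and had 38.3 and 72.9 (0.60 ± 0.044 times).

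Small genes nested in dnc had no replicated peak. Between 3236130 and 3251040 on X lie 7 of them, namely CG14265, ng1, ng2, ng3, ng4, Pig1 and Sgs4, and Sgs4 encodes a glue protein of the larval salivary gland. The ranked lists held 19 peaks in this stretch in replicate 1 and 13 in replicate 2. None reached the IDR score of 830 that the thresholded sets require. Over all arms only 3.63% of ranked peaks in replicate 1 and 8.29% in replicate 2 did, so nothing is read from their absence here. The strongest in the stretch had a signal of 27.6 in replicate 1 (0.41 times the median, score 158) and 28.9 in replicate 2 (0.25 times, score 71). Their summits, 3248831 and 3236401, were not at the same place. CG10793, nested further along, was nearest to no peak of any set, and lncRNA:CR44886, which overlaps the end of dnc on the other strand, was not among the genes that peaks were assigned to.

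Peaks of shn lay in its introns more than at its starts. The gene (FBgn0003396) lies on the plus strand of 2R from 11159086 to 11217394, a stretch of 58.3 kb with 6 transcripts and 5 starts. Of the 10 peaks 8 were intronic and 2 had their summit within 500 bp of a start, where 30.1% and 56.1% of all replicated peaks did. The 2 peaks at starts held 28.3% of the summed pooled signal of the shn peaks, again without a share over all replicated peaks. All 10 shn peaks lay within 31.0 kb, in the first 2 introns of the longest transcript shn-RE. Intron 1 held 3 and intron 2, which is 17.8 kb long, held 7. The median gap between neighbouring summits was 3891 bp at shn, and 16026 bp at dnc. Per 100 kb of gene, shn had 17.2 peaks and dnc 5.38, where all arms together had 3.87. Both genes were chosen for many peaks, so nothing is read from these densities.

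The strongest shn peak by pooled signal (2R, 11184434 to 11184694, summit 11184557) lay in intron 1, 1333 bp downstream of the shn-RA start. Its signal was 236 in replicate 1 and 571 in replicate 2, or 3.47 and 4.91 times the median (4.19 ± 1.01, SD, n = 2; rank 233). Both values were above every other intronic peak of shn in the same replicate. The second intronic peak in strength (2R, 11194678 to 11194912, summit 11194823) lay 3453 bp upstream of shn-RB in intron 2. It had 139 and 258 (2.13 ± 0.12 times), with replicate summits 1 bp apart.

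Among the shn peaks, the replicates differed most at the start shared by shn-RD and shn-RF. The peak there (2R, 11173521 to 11173815, summit 11173654) lay 149 bp upstream of the start, with a signal of 54.7 in replicate 1 and 635 in replicate 2. Relative to the median these are 0.81 and 5.46 times, so the mean of 3.13 times has an SD of 3.29 (n = 2) and does not describe either replicate. In replicate 2 it was the strongest peak of shn, and in replicate 1 it was below the median, with an IDR score of 593 in that replicate's ranked list. The log2 ratio of replicate 2 to replicate 1 was 2.76 there, and of the 5279 replicated peaks with both values 0 had a higher one (median -0.017, SD across peaks 0.55). Gaps in the other direction were not counted. At least 1 was wider, at a peak of another gene with 5.22 times the median in replicate 1 and 0.56 times in replicate 2. Replicate summits of the shn peak lay 78 bp apart. CG13229, on the other strand, starts at 11172206, so this peak lies between 2 starts that point away from each other, nearer to that of shn.

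**Figure D2:**
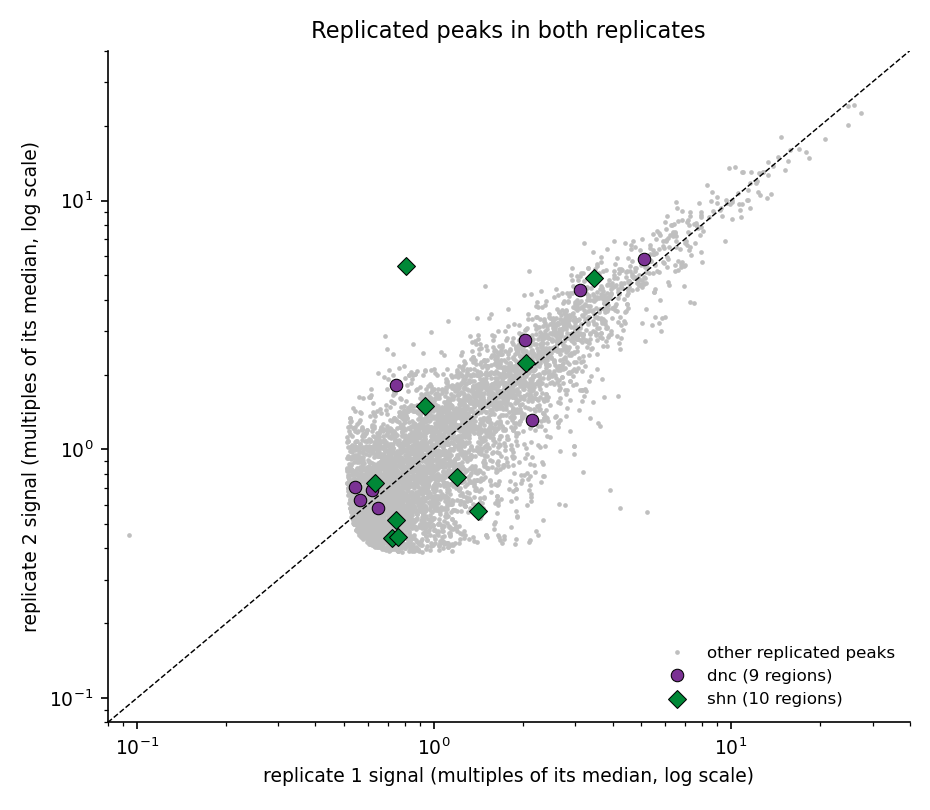
Each replicated peak by its signal in replicate 1 (x axis) and replicate 2 (y axis), in multiples of that replicate's median on log scales, with dnc regions as circles, shn regions as diamonds and all others in grey; the dashed line marks equal multiples. The diamond far above the line, at 0.81 and 5.46, is the peak at the shn-RD and shn-RF start.

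At several weaker shn peaks replicate 1 gave the higher multiple of the median. The peak 687 bp upstream of shn-RB (summit 11197589) had 95.5 in replicate 1 and 65.9 in replicate 2, or 1.41 and 0.57 times the median. Its neighbour 483 bp away (summit 11197106) went the other way, with 63.6 and 174, or 0.94 and 1.49 times. The pair thus changed order between the replicates. At summit 11203101, 1528 bp upstream of shn-RC, the signals were 81.4 and 90.3 (0.99 ± 0.30 times, SD, n = 2). The other 4 peaks, with summits 11179245, 11190932, 11202383 and 11204667, were below the median in both replicates, with means from 0.58 to 0.68 times. The last of them lay 38 bp downstream of the shn-RC start. Of the 10 shn peaks 5 were higher relative to the median in replicate 2, and at dnc 7 of 10 were, with each summit of the shared region counted by its own nearest ranked peak.

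**Figure D3:**
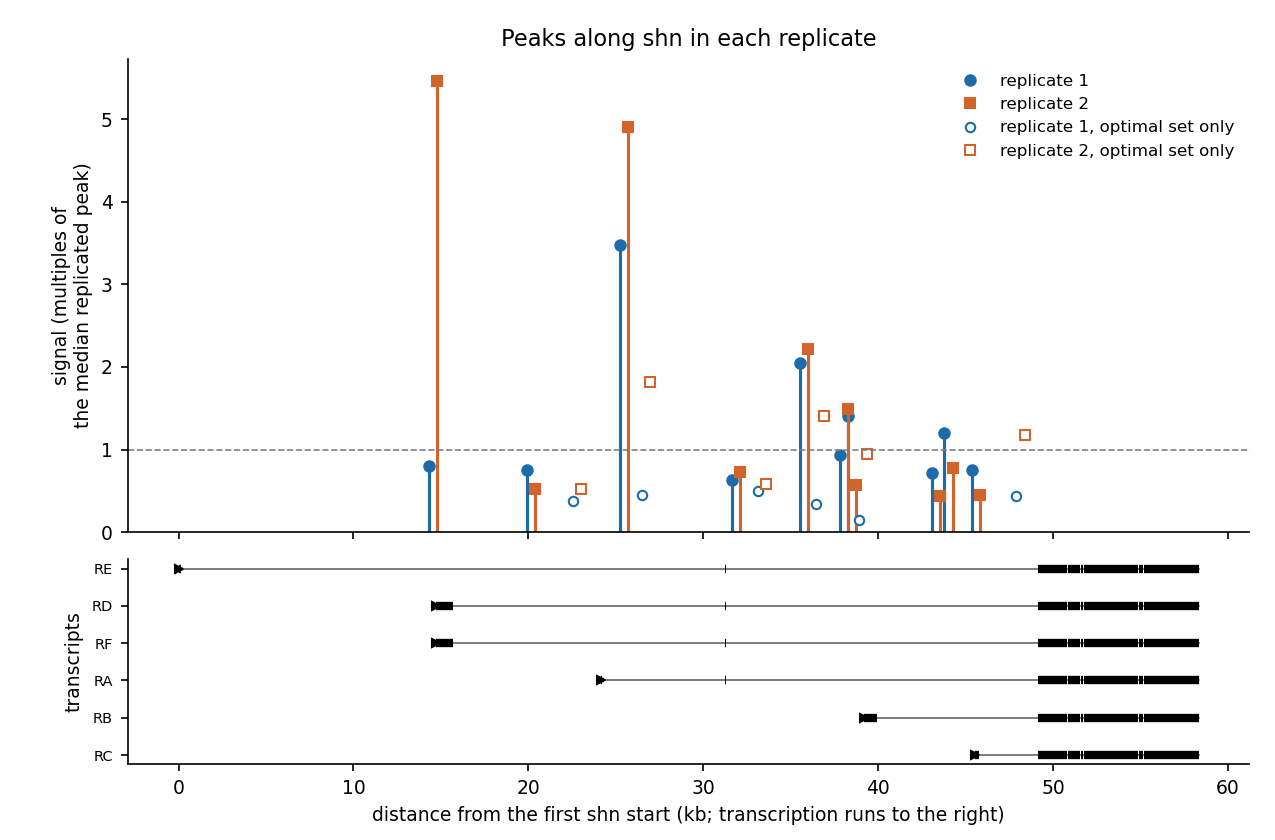
Signal of each shn peak by replicate, in multiples of the median replicated peak (y axis), against the distance from the first shn start in kb (x axis), over the annotated transcripts with exons as boxes. Filled symbols are replicated peaks and open symbols the 6 peaks of the optimal set alone, for which replicate 1 stands at 0.15 to 0.50 and replicate 2 at 0.52 to 1.81.

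The remaining starts of shn had no replicated summit within 500 bp, and little signal in replicate 1. No ranked peak of either replicate lay within 500 bp of the first start of the gene, that of shn-RE. At shn-RA replicate 1 had no ranked peak, and the strongest in replicate 2 reached 0.18 times the median. At shn-RB a peak 53 bp upstream of the start reached 110.3 in replicate 2 (0.95 times) and 10.04 in replicate 1 (0.15 times), and it is in the optimal set and in the own set of replicate 2 alone. In the own set of replicate 1 none of the 5 shn starts had a summit within 500 bp, where 18.4% of all starts did. In that of replicate 2, 2 had, where 25.8% of all starts did. Since shn was also chosen for its many peaks, nothing is read from these shares.

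**Figure D4:**
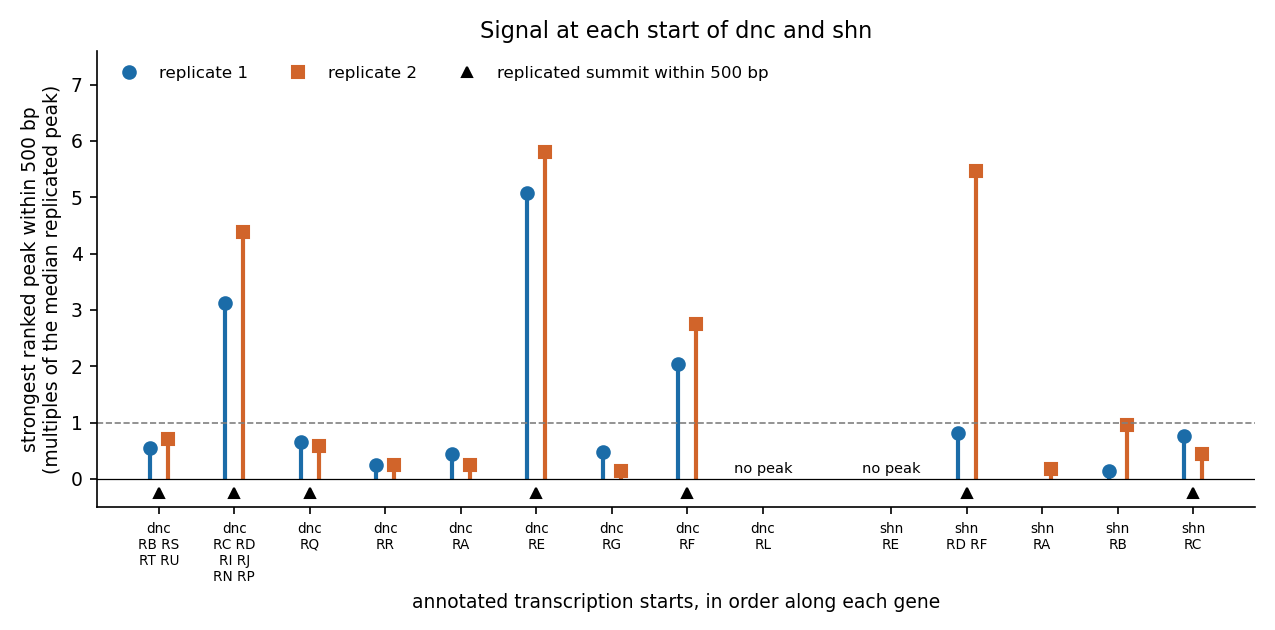
Strongest ranked peak within 500 bp of each annotated start of dnc and shn, in multiples of the median replicated peak (y axis), for both replicates, with starts in order along each gene (x axis) and triangles where a replicated summit lies within 500 bp. High starts at dnc (3.12 and 4.37, 5.08 and 5.81, 2.03 and 2.75) are high in both replicates, and the one at shn-RD and shn-RF in replicate 2 alone.

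How many peaks each locus had depended on the list, and for shn far more than for dnc. The own set of replicate 1 held 6 peaks nearest to each gene. At starts lay 4 of the 6 for dnc and 0 of 6 for shn, and in introns 2 and 6 (58.9% and 27.9% of that whole set). The own set of replicate 2 held 9 for dnc and 18 for shn. At starts lay 5 of those 9 and 2 of those 18, and in introns 4 and 15 (52.8% and 32.4% of that whole set). The optimal set held 10 for dnc, divided as in the replicated set, and 16 for shn, with 3 at starts and 13 in introns (50.8% and 32.6% of that whole set). Both own sets held 5 of the 10 dnc peaks and 6 of the 10 shn peaks, where 63.0% of all replicated peaks were held by both. A further 4 dnc peaks and 3 shn peaks were held by replicate 2 alone, none by replicate 1 alone, and 1 of each gene by neither. The own set of replicate 2 is the larger (6850 peaks against 3957). Shares of all replicated peaks held by 1 replicate alone or by neither are not given here, so nothing is read from these counts. Among all protein-coding genes, 0.00716% had 10 or more peaks in the own set of replicate 1, 0.158% in that of replicate 2 and 0.243% in the optimal set.

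At shn the optimal set added 6 peaks that overlap no replicated one, 5 in introns and the one at shn-RB. Strongest of them was a peak 2586 bp downstream of shn-RA (2R, summit 11185810), with a signal of 30.9 in replicate 1 and 211 in replicate 2 (0.46 and 1.81 times the median). Another lay 2590 bp downstream of shn-RC (summit 11207219), past the last replicated peak, with 29.5 and 136. All 6 were below the median in replicate 1, where their scores ran from 42 to 824. In replicate 2 they spanned 0.52 to 1.81 times. The own set of replicate 2 held 7 peaks at shn that overlap no replicated peak, and that of replicate 1 held 0.

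At dnc the optimal set added 1 peak within the gene (X, summit 3206593), 521 bp from the replicated summit in intron 2. It counts for CG14265, whose start is 30093 bp away, since the nearest dnc start is 30153 bp away. It had 19.7 in replicate 1 and 65.7 in replicate 2. The own set of replicate 1 held 1 dnc peak of its own (summit 3188640), with 51.5 in replicate 1 and 11.1 in replicate 2, or 0.76 and 0.095 times the median.

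Most called regions of the ranked lists stayed below the IDR score at both genes. Within dnc the ranked lists held 145 peaks in replicate 1 and 141 in replicate 2, of which 6 and 9 scored 830 or more. Within shn they held 64 and 70, of which 7 and 18 did (10.9% and 25.7%). Over all arms 3.63% of ranked peaks in replicate 1 and 8.29% in replicate 2 did. The genes were chosen on the same peaks, so nothing is read from these shares.

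Motifs in the 200-bp windows around the summits were few. Of 11 motifs searched on both strands, 4 stood in at least 1 window of the members. The pentamer GAGAG, bound by GAGA factor, stood in 4 of 10 dnc windows and 3 of 10 shn windows, and in 25.2% of all replicated windows. All 4 of those dnc windows belong to peaks at starts. It was repeated 13 times, with overlaps, at the first start of dnc, in the run of CTCTC shown above. At shn it stood 5 times at the shn-RD and shn-RF start and 5 times at the intronic summit 11202383. The intronic summit 11194823 had it 1 time. The homeodomain core TAATTA stood in 0 of 10 dnc windows and 2 of 10 shn windows, at summits 11197106 and 11203101, and in 15.2% of all windows. CAGCTG, an E-box, stood in 1 dnc window and 9.63% of all windows, beginning at the summit itself in the intronic peak printed last. AGGTCA, a nuclear receptor motif, stood in 1 shn window and 3.85% of all.

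The other 7 motifs matched no member window. They were the paired-class palindrome, TAAT and ATTA spaced by 3 bases (2.61% of all windows), the DREF site TATCGATA (4.51%), promoter motif 1 GGTCACACT (2.01%), the Zelda site CAGGTAG (1.09%), the cAMP response element TGACGTCA (0.319%), the Smad palindrome GTCTAGAC (0.0563%) and the silencer site on which Mad, Medea and Shn meet (0.0563%). The hexamer ATCGAT, the centre of the DREF site, was added after the dnc windows were read. It stood in 2 dnc windows, those of the 2 strongest peaks at starts, 38 bp downstream of summit 3295004 and 83 bp downstream of summit 3255699, in 0 shn windows and in 12.2% of all. GC content over 50 bp at the summit had a median of 37.0% at dnc and 38.0% at shn, and of 36.0% over all replicated peaks.

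Other genes of the cAMP pathway were also near peaks. Of 34 genes in the list, 23 were nearest to at least 1 replicated peak (67.6%), where 24.7% of all protein-coding genes were. The share was 52.9% in the own set of replicate 1 (20.5% of all genes) and 70.6% in that of replicate 2 (28.8%), and the optimal set had 26 of the 34 (31.6% of all genes). The listed genes are long, with a median of 28.4 kb against 2.16 kb over all protein-coding genes, and the part of gene length in the count was not tested. Median strength of the strongest peak was 1.12 times the median peak over the 23 and 1.19 times over all 3456 genes with a peak. dnc itself is in the list and had the highest peak in it. It was chosen for its peaks, so it is among the 23 by that choice.

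All 6 phosphodiesterase genes of that list had a replicated peak, namely Pde1c, Pde6, Pde8, Pde9, Pde11 and dnc, itself chosen for its peaks. The list does not separate these enzymes by the nucleotide they break down, so not each need act on cAMP. Pde6 had its strongest peak 311 bp from a start with 153 in replicate 1 and 253 in replicate 2 (2.22 ± 0.063 times the median peak, SD, n = 2). Pde8 had an intronic one with 131 and 255 (2.06 ± 0.19 times). Of 5 adenylyl cyclase genes, which make cAMP, 3 had a peak, rut, Ac13E and Ac78C, and that of Ac78C lay 120 bp from its start with 170 and 298 (2.53 ± 0.038 times). Of 5 genes for subunits of protein kinase A, the kinase that cAMP switches on, Pka-C1 and Pka-R2 had peaks. The strongest at Pka-C1, the catalytic subunit, was intronic with 157 and 329 (2.57 ± 0.37 times).

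The transcription regulators CrebA, CrebB, Crtc and nej all had peaks. At nej, the CBP coactivator, the strongest had 249 and 658 (4.66 ± 1.41 times; X, summit 9687782), the highest of the list after dnc. Of 8 genes for G proteins and receptors, Galphai, Galphao, Dop1R2 and Octbeta1R had peaks. The remaining 4 were amn, Nf1, and the anchor protein genes Akap200 and spoon. The list of replicate 1 alone held no thresholded peak nearest to Akap200, CrebA, Dop1R2, Galphai, Nf1 or Octbeta1R. That of replicate 2 held none nearest to Akap200, Nf1, Octbeta1R or Pde9.

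In the Dpp pathway list 19 of 41 genes were nearest to a replicated peak (46.3%, against 24.7% of all genes). With a summit required within 500 bp of a start, 8 of the 41 were, and the share of all genes under that limit is not given here. By nearest gene alone, the listed share was 41.5% in the own set of replicate 1 (20.5% of all genes). It was 58.5% in that of replicate 2 (28.8%) and 61.0% in the optimal set (31.6%). Median gene length in the list was 11.7 kb, and its part in the count was again not tested. The median strength of the strongest peak was 1.27 times the median peak over the 19. shn was chosen for its peaks, so it is among the 19 by that choice. Of 4 ligand genes only dpp had a peak, with 55.3 and 69.3 (0.71 ± 0.16 times, SD, n = 2) at an intergenic site. Among 5 receptor genes wit alone had one, while tkv and put had them in the optimal set and among those of replicate 2. Mad and Smox had peaks, whereas Med and Dad had none in the replicated set.

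All 4 cofactor and repressor genes had replicated peaks, namely nej (also in the cAMP list), CtBP, brk and shn, itself chosen for its peaks. At brk, the gene that Shn represses, there were 3, the strongest with 59.6 and 116 (0.94 ± 0.082 times the median peak). Extracellular modulators with peaks were sog, cv-2, dally and dlp. The antagonist sog had 4, the strongest with 127 and 281 (2.15 ± 0.38 times), and the strongest at cv-2 had 95.2 and 240 (1.73 ± 0.47 times). Of 16 target and other genes Ance, bi, Doc2, eya, salm, tup and ush had peaks. The GATA cofactor gene ush had 9 of them, the strongest 78 bp from its start with 133 and 335 (2.42 ± 0.65 times). At Doc2 the strongest was intergenic with 134 and 295 (2.26 ± 0.39 times).

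Genes most like dnc and shn in their numbers of peaks were found by the distance between log2(number + 1) in the replicated set and the own sets of both replicates. Nearest to dnc (10, 6 and 9 peaks) were scyl and kirre (9, 6 and 9 each; distance 0.14) and ush (9, 6 and 8; distance 0.20). The 9 kirre peaks were all intronic, in a gene of 394 kb, so a like number went with another placement. Nearest to shn (10, 6 and 18 peaks) were Eip75B (9, 6 and 17; distance 0.16) and Tlk (11, 7 and 15; distance 0.34). Tlk had 3 peaks at starts and 8 in introns. The strongest Tlk peak stood at 12.4 ± 0.95 times the median (SD, n = 2).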

How the data were processed

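ChIP-seq peak lists of 2 biological replicates of 1 group were used. Per the labels the assembly is dm6, and the arms of the reference used here carry the same names. The aligner was not given in the sources used here, nor was the peak caller. Each deposited score is the irreproducible discovery rate (IDR) on a scale where 830 stands for 0.01 and 1000 is the most, and every thresholded set starts at 830. The deposited signal is the caller's peak strength with no stated scale, and the deposited −log10 q values entered no result. Per the deposited notes, each replicate's lists derive from the alignment of that library and from further source material not analysed here, whose part in the signal is unknown. Peaks of the replicated set (5325 peaks) and the optimal set (7718) carry values of a pooled call. Peaks off the arms were left out.

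Summits were assigned to the nearest start of a protein-coding gene (Ensembl release 115) with Python 3.11.15 and pandas 2.3.3. A replicate's value is that of the strongest overlapping peak (1 bp) in its ranked list. The steps were tested on simulated data. With 2 replicates, members chosen on these values and no control group, no test was made, and the SD between replicates is the only error. Members, lists and motifs were chosen with earlier results of these data known. Named are all member peaks, genes nested in or next to them, listed genes with a peak (values for the 6 strongest and for genes the text turns on, chosen after values were seen: dpp and brk) and the 3 genes most like each member, of which 1 is not reported here. Sequences are from RefSeq's copy of the same assembly, and those of 2R and of exons are not printed.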

Additional observations from a re-analysis of the deposited data

How the results depend on the processing

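Over 14 results 86 alternatives were computed. In 64 of them a count stayed within 1.5 times, or a signal within the SD between replicates, and no test was run in any. The optimal set gave 16 shn peaks, 13 of them in introns. With a single replicate's own set, dnc had 6 to 9 peaks with 2 to 4 in introns, and shn had 6 to 18 peaks with 0 to 2 at starts and 6 to 15 in introns. Keeping the stronger 50% of the set by signal left 5 dnc peaks (3 at starts, 2 in introns) and 4 shn peaks (1 at a start, 3 in introns). A score of 1000 left 1 shn peak at a start, and a limit of 200 bp left 2 dnc peaks at starts. The median dnc peak was 1.12 times by pooled signal and 0.97 times by nearest summit, where the second summit of the shared region takes its own weaker value. The median shn peak, 0.99 times, was 0.75 to 0.87 times in single replicates and 0.83 times by pooled signal. Within 500 bp of a start, 8 Dpp pathway genes had a peak instead of 19, with no share of all genes under that limit given. The cause was not tested. Regions with several summits counted once, an alternative chosen after seeing the data, gave 9 for dnc and 10 for shn. No paired analysis was possible because the samples form 1 group. Without read counts, weak peaks carry no counting interval.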

Other observations

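At dnc, a pair of starts without a replicated peak lay within a few kb of the start with the strongest one. The dnc-RR and dnc-RA starts lie 114.57 and 114.80 kb into the gene and the dnc-RE start 118.84 kb, and the strongest ranked peaks within 500 bp stood at 0.25 and 0.24 times the median peak for dnc-RR against 5.08 and 5.81 times for dnc-RE (replicates 1 and 2). The peak at the shn-RD and shn-RF start would merit a second look in the reads, since its replicates stood at 0.81 and 5.46 times the median, and since it passed the IDR score in the replicated set and in replicate 2 while scoring 593 in replicate 1.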
